A study of Rattus norvegicus with 8 samples.

Results

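Bipolar cells are the retinal interneurons that pass signals from photoreceptors to amacrine and ganglion cells. A set of 9 genes that mark these cells (Trpm1, Nyx, Gng13, Pcp2, Prkca, Cabp5, Isl1, Bhlhe23 and Vsx1) was followed in whole rat retina after transcorneal electrical stimulation (TES), a current applied through an electrode on the cornea. A gene was measured where the array annotation gave a probe set exactly 1 gene symbol and that symbol was the gene's. This held for 8 of the 9 genes, which together had 71 of the 213067 probe sets on the array and were 8 of its 16633 genes. All 5 probe sets annotated to Vsx1 also carried the symbol Acss1, so Vsx1 was not analysed.

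The retinas came from male Brown Norway rats aged 8 weeks, killed 4 h after TES or after a sham procedure, with 4 arrays in each group. The labels give no genetic change and no current setting. Each array was an Affymetrix Rat Gene 1.0 ST array hybridised with retinal RNA, and its probe sets lie along the exons of a gene. Nothing in the sources says that every array came from a different animal, and p-values then measure the spread between these samples alone, part of which may be technical. Values are log2 GC-RMA signals, and differences are log2 values of TES less those of sham, each with its 95% interval from limma. Signals of different genes come from different probes and are not ranked by abundance.

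ON bipolar cells depolarise when light lowers the glutamate released by photoreceptors. Their receptor mGluR6, encoded by Grm6, acts through the G protein Go, and the cascade closes the cation channel TRPM1, whose opening gives the light response. Nyctalopin, encoded by Nyx, holds TRPM1 at the dendritic tips. OFF bipolar cells use ionotropic glutamate receptors instead, and rod bipolar cells are the ON type recognised by protein kinase C alpha, the product of Prkca. The homeodomain factors OTX2 and CRX are known to drive photoreceptor and bipolar genes and bind sites of the TAATCC type.

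Promoter sequences, from 250 bases before to 50 bases after the start of the gene, were available from RefSeq (build GRCr8) for 8 of the 9 listed genes, Vsx1 among them and Cabp5 not. The sequence TAATCC, searched on both strands, occurred in those of 2 genes, Trpm1 and Nyx, and in 7.17% of the 33469 promoters of this length. The palindrome TAATTA, a core bound by many homeodomain factors, occurred in 0 of the 8 and in 5.36% of all promoters. The 2 promoters with a match belong to the channel and to its anchor at the dendritic tip. They are shown 5′ to 3′ on the strand of the gene, with the match in capitals, which reads GGATTA in Trpm1 because it lies on the opposite strand. The match begins 93 bases before the start in Trpm1 (promoter at chr1:127130436-127130735, plus strand) and 43 bases before it in Nyx (chrX:11974667-11974966, minus strand). A match of letters is a description and not a binding site.
Trpm1: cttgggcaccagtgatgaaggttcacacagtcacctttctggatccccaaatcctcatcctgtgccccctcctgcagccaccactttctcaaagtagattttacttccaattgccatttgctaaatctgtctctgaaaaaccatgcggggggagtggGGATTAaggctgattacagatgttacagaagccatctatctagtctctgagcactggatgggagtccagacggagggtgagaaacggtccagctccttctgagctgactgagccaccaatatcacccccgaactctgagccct
Nyx: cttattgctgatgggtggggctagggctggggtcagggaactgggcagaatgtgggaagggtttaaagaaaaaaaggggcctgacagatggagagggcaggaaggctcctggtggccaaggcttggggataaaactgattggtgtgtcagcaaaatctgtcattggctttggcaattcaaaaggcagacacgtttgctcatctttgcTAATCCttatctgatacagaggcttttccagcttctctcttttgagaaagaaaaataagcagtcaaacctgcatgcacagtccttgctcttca

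Both factors gave high signals in these retinas. Otx2 read 11.07, 10.99, 11.01 and 10.85 on TES 1 to TES 4 and 11.19, 11.03, 10.98 and 11.10 on sham 1 to sham 4. Crx read 11.63, 11.72, 11.53 and 11.62 after TES and 11.74, 11.70, 11.53 and 11.75 after sham. The groups overlapped for both genes. Otx2 differed by -0.10 (95% interval -0.28 to 0.09) and Crx by -0.055 (95% interval -0.24 to 0.13).

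The comparison of TES with sham asked which of these genes differ in the retina 4 h after stimulation, and no bipolar cell marker passed the test. With limma, 0 of the 8 measured genes had an adjusted p under 0.05, as did 0% of all genes, and 0 of the 8 had an unadjusted p under 0.05, against 5.57% of all genes. The ordinary equal-variance test and limma with trend and robust moderation also gave 0 of the 8 at both levels. The study's thresholds, an unadjusted p below 0.05 and a change of 1.2 fold or more, were applied to the limma fit. They took 0 of the 8 and 3.59% of all genes. SAM, the method the series text names for its selection, was not rerun. In 0 of the 8 did the groups fail to overlap, against 3.31% of all genes. Signals were higher after TES for 2 genes, Trpm1 and Isl1, and lower for 6, and 54.9% of all genes were lower.

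The intervals give, gene by gene, the size of change in the mean over probe sets that these arrays leave possible. Single probe sets had wider intervals. Over the 8 genes the 95% intervals ran from 0.767 fold (Pcp2) to 1.28 fold (Trpm1), TES over sham. Standard errors lay between 0.079 (Prkca) and 0.11 (Pcp2), where the median over all genes was 0.11. In RNA from whole retina, fewer bipolar cells and less RNA per bipolar cell cannot be told apart.

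All 8 genes were well detected by the measures at hand. The 1100 olfactory receptor genes served as a guide to low signal, and the 95th percentile of their means was 3.10. The lowest mean among the bipolar markers was 5.94 (Bhlhe23), and 0 of their 71 probe sets had a mean at or below the guide. The guide was set on means per gene and not on single probe sets. The dimmest probe set, 10936749 of Nyx, had a mean of 3.78. Probe set 10707696 of Trpm1 fell below 3.10 on TES 1 (2.63) and sham 2 (2.90). Median signals of the arrays ran from 5.32 to 5.41, and any 2 arrays correlated across genes with r between 0.9896 and 0.9945, genes not being independent replicates. Of the rod markers, 8 of 8 measured genes were above the guide, as were 6 of 6 for Mueller glia, 7 of 7 for amacrine cells and 8 of 8 for ganglion cells.

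**Figure D1:**
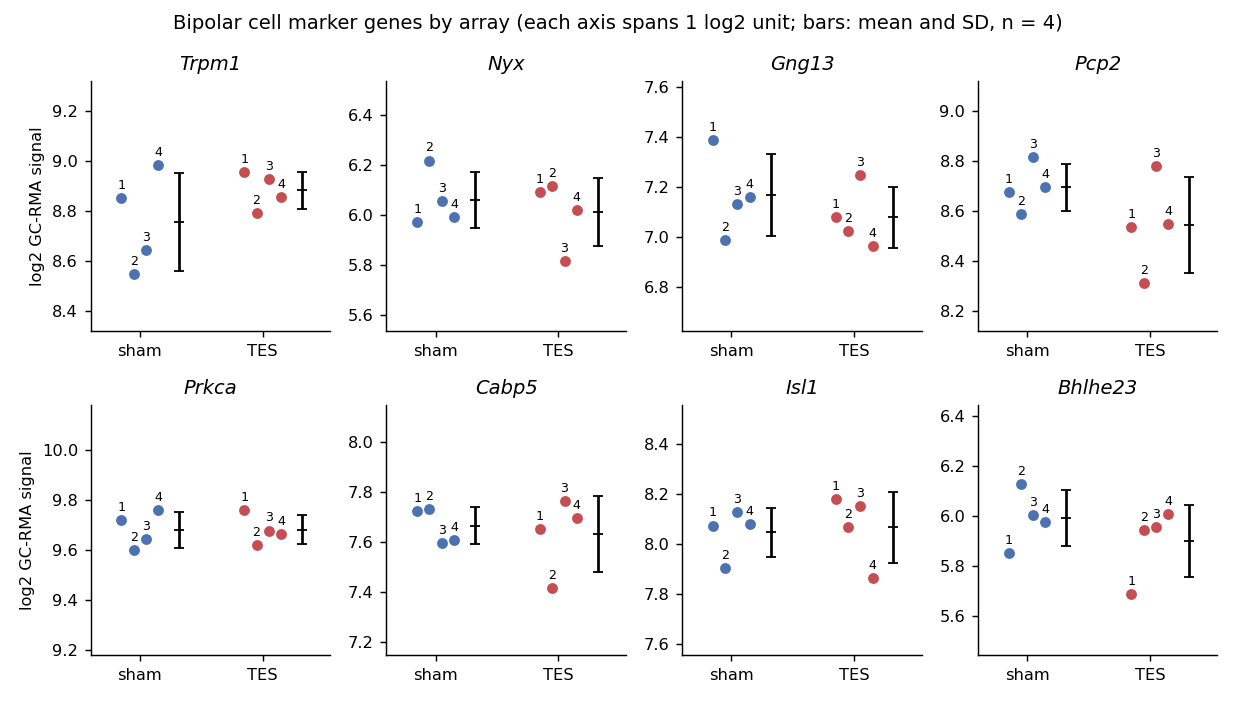
Signal of each measured bipolar cell marker on each array; the y axes give the log2 GC-RMA signal and each spans 1 log2 unit, blue points are the 4 sham and red points the 4 TES arrays numbered by replicate, and black bars are the group mean and SD. The 2 groups overlap in all 8 genes, and Prkca has the narrowest spread.

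Trpm1, the channel that opens in ON bipolar cells in the light, had the highest difference of the 8. It read 8.95, 8.79, 8.93 and 8.85 on TES 1 to TES 4 and 8.85, 8.55, 8.64 and 8.98 on sham 1 to sham 4. Sham 2 and sham 3 lay below every TES array, while sham 4 was the highest of all 8 arrays. The means were 8.88 ± 0.07 after TES and 8.76 ± 0.20 after sham (SD, n = 4), a difference of 0.13 (95% interval -0.10 to 0.36, limma adjusted p 0.957). Leaving out sham 2 lowered the difference to 0.057, and leaving out sham 4 raised it to 0.20 (limma adjusted p between 0.858 and 0.994 over the 8 arrays left out in turn).

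Nyx, the anchor of TRPM1, had a difference close to 0. Its signal was 6.09, 6.12, 5.82 and 6.02 on TES 1 to TES 4 and 5.97, 6.22, 6.06 and 5.99 on sham 1 to sham 4. TES 3 was the lowest array and sham 2 the highest, and the other 6 lay between 5.97 and 6.12. The difference was -0.049 (95% interval -0.26 to 0.16, limma adjusted p 0.990).

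Gng13 encodes a G protein gamma subunit that ON bipolar cells share with taste cells. It read 7.08, 7.02, 7.25 and 6.96 on TES 1 to TES 4 and 7.39, 6.99, 7.13 and 7.16 on sham 1 to sham 4. Sham 1 was the highest array and TES 4 the lowest, with the rest mixed. The means were 7.08 ± 0.12 and 7.17 ± 0.17, a difference of -0.089 (95% interval -0.32 to 0.14, limma adjusted p 0.974). Without sham 1 this difference was -0.015.

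Pcp2, a regulator of Go proteins found in ON bipolar cells and cerebellar Purkinje cells, had the lowest difference and the smallest unadjusted p of the 8 (0.181). It read 8.54, 8.31, 8.78 and 8.55 on TES 1 to TES 4 and 8.68, 8.59, 8.82 and 8.70 on sham 1 to sham 4. On TES 1, TES 2 and TES 4 it lay below every sham array, and TES 3 was above all sham arrays but sham 3. The means were 8.55 ± 0.19 and 8.70 ± 0.09, a difference of -0.15 (95% interval -0.38 to 0.08, limma adjusted p 0.936). Without TES 3 the difference was -0.23, with an unadjusted p of 0.0464 and an adjusted p of 0.936 in limma, and without TES 2 it was -0.073. Over the 8 arrays left out in turn the limma adjusted p of Pcp2 ran from 0.904 to 0.984.

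Prkca, the kinase gene whose protein labels rod bipolar cells, was the closest to equal between groups. Its signal was 9.76, 9.62, 9.68 and 9.66 on TES 1 to TES 4 and 9.72, 9.60, 9.64 and 9.76 on sham 1 to sham 4. All 8 arrays lay within a narrow band, with sham 2 lowest and sham 4 highest, as for Trpm1. The means were 9.68 ± 0.06 and 9.68 ± 0.07, and the interval of the difference, -0.17 to 0.17, corresponds to 0.886 to 1.13 fold.

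Cabp5, a calcium-binding protein gene of rod bipolar cells and some cone bipolar cells, read 7.65, 7.42, 7.77 and 7.70 on TES 1 to TES 4. On sham 1 to sham 4 it read 7.73, 7.74, 7.60 and 7.61. TES 2 stood lowest and TES 3 highest, so the sham arrays lay inside the range of the TES arrays. The difference was -0.033 (95% interval -0.24 to 0.17, limma adjusted p 0.994).

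The transcription factors of the set were Isl1, a LIM-homeodomain gene needed for bipolar cell maturation, and Bhlhe23, a basic helix-loop-helix gene needed by rod bipolar cells in mouse. Isl1 read 8.18, 8.07, 8.15 and 7.86 on TES 1 to TES 4 and 8.07, 7.90, 8.13 and 8.08 on sham 1 to sham 4. The lowest array of each group stood apart from the rest, TES 4 and sham 2, and the other 6 lay between 8.07 and 8.18. The difference was 0.019 (95% interval -0.19 to 0.23, limma adjusted p 0.998). Isl1 is also made by ganglion cells and cholinergic amacrine cells. The mean signal of the 8 ganglion cell markers was 7.19 to 7.34 on TES arrays and 7.26 to 7.36 on sham arrays, and that of the 7 amacrine markers 8.36 to 8.54 and 8.36 to 8.53. The amacrine list holds no marker of cholinergic cells alone. The part of ganglion and amacrine cells in the value of Isl1 was not tested.

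Bhlhe23 rests on 1 probe set. It read 5.69, 5.94, 5.95 and 6.01 on TES 1 to TES 4 and 5.85, 6.13, 6.00 and 5.98 on sham 1 to sham 4. TES 1 was the lowest array and sham 2 the highest. The difference was -0.092 (95% interval -0.31 to 0.12, limma adjusted p 0.969), and it was -0.021 without TES 1.

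Probe sets along each gene were then examined one by one, since a change in part of a transcript can be lost in the mean. Of the 71 probe sets 37 were higher and 34 lower after TES, with a median difference of 0.0023, and 51.7% of all probe sets were lower. In limma 0 of the 71 passed an adjusted p of 0.05 (0% of all probe sets), and 1 had an unadjusted p under 0.05, against 5.13% of all. In 0 of the 71 were the groups without overlap, against 2.82% of all. The ordinary equal-variance test gave 0 at an unadjusted p under 0.05, and limma with trend and robust moderation gave 1.

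That 1 probe set belonged to Trpm1 (10707677). It read 8.83, 8.59, 9.04 and 8.34 on TES 1 to TES 4 and 8.23, 7.46, 7.91 and 8.57 on sham 1 to sham 4. Sham 2 and sham 3 were the lowest arrays here too, and sham 4 lay above TES 4. The difference was 0.66 (95% interval 0.05 to 1.26), with an unadjusted p of 0.0370 and an adjusted p of 0.964 in limma. Without sham 2 it was 0.46 (unadjusted p 0.0892 in limma), and without sham 4 it was 0.83 (0.0124). With 1 array left out in turn the unadjusted limma p of 10707677 was over 0.05 in 5 of 8 fits, and it was 0.0642 with the replicate number as a block and 0.0569 in the ordinary equal-variance test.

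The difference of Trpm1 came mostly from its dimmer probe sets, a split by mean signal over all arrays that was chosen after the values were seen and carries no test. The 13 probe sets of lower signal had means from 3.93 to 9.06, and 11 of them were higher after TES, with a mean difference of 0.23. The 13 of higher signal had means from 9.19 to 11.11, and 6 of them were higher after TES, with a mean difference of 0.025. The first 13 thus supplied 89.9% of the summed difference of the gene. They were also less precise, with a median standard error of 0.26 against 0.15.

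By array, the mean over the 13 dimmer Trpm1 probe sets was 7.72, 7.54, 7.75 and 7.51 on TES 1 to TES 4 and 7.56, 7.05, 7.22 and 7.78 on sham 1 to sham 4. Sham 2 and sham 3 were low and sham 4 was the highest array. The mean difference of 0.23 was 0.11 without sham 2 and 0.35 without sham 4, values added after seeing the data. Over the 13 brighter probe sets the means were 10.18, 10.04, 10.11 and 10.20 on TES arrays and 10.15, 10.05, 10.07 and 10.18 on sham arrays, all within a narrow band. The brightest probe set of the gene (10707703) differed by -0.087 and the dimmest (10707696) by -0.033, both opposite in sign to the gene mean.

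**Figure D2:**
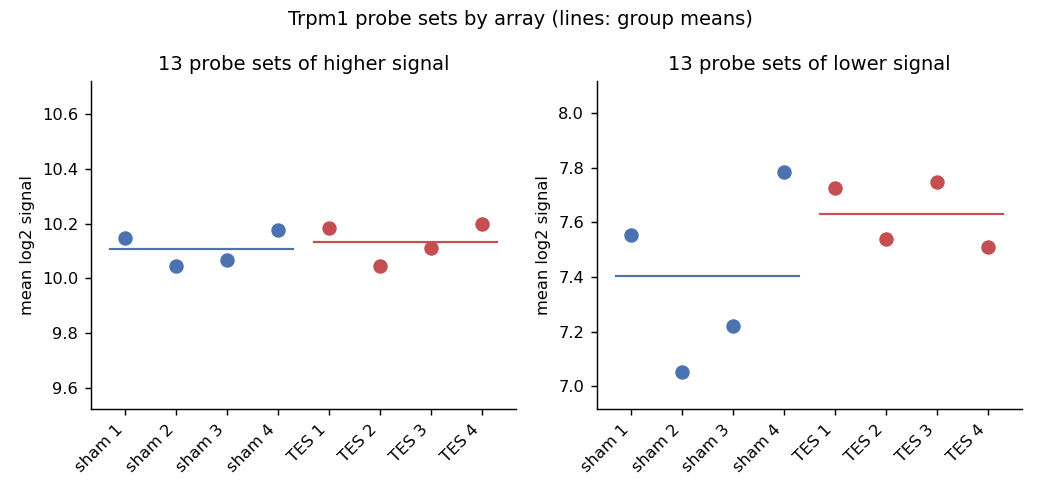
Mean log2 signal of the Trpm1 probe sets on each array, for the 13 probe sets of higher signal and the 13 of lower signal; blue points are sham and red points TES arrays, lines are group means, and both y axes span the same range. In the dimmer probe sets sham 2 (7.05) and sham 3 (7.22) lie below the other arrays, and in the brighter ones all arrays lie between 10.04 and 10.20.

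Trpm1 is also made by pigment cells, so the pigment epithelium markers are given beside it. The mean over the 7 measured markers was 5.23, 6.04, 5.67 and 5.31 on TES 1 to TES 4 and 5.95, 6.05, 5.83 and 5.67 on sham 1 to sham 4. TES 1 and TES 4 were low. Sham 2, the lowest array for Trpm1, and TES 2 were the highest for this list and nearly equal (6.05 and 6.04). Of the 7 markers 6 were lower after TES, where 54.9% of all genes were. In limma 4 had an unadjusted p under 0.05 (5.57% of all genes) and 0 an adjusted p under 0.05 (0% of all genes). The mean of 1 marker lay at or below the guide to low signal. The part of the pigment epithelium in the values of Trpm1 was not tested.

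The other genes had less spread among their probe sets. Of the 20 probe sets of Prkca 12 were higher and 8 lower, with a median of 0.0040, and the brightest (10748478) differed by -0.056 and the dimmest (10748487) by -0.29. Of the 8 of Cabp5 3 were higher and 5 lower, from -0.39 to 0.29, with 0.032 for the brightest (10704361) and 0.29 for the dimmest (10704358). Isl1 had 4 higher and 3 lower of 7, with 0.020 for the brightest (10821489) and -0.088 for the dimmest (10821493). These 3 genes thus had probe sets on both sides of 0.

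Pcp2 and Gng13 were the genes whose probe sets all went one way. The 3 probe sets of Pcp2 were all lower after TES, with -0.087 for the brightest (10756196) and -0.28 for the dimmest (10756192). Without TES 2 these were -0.032 and -0.16, and without TES 3 the dimmest was -0.41 (unadjusted p 0.0479 in limma). The dimmest read 7.22, 6.76, 7.50 and 6.97 on TES 1 to TES 4 and 7.25, 7.41, 7.52 and 7.40 on sham 1 to sham 4, so that TES 3 alone lay within the range of the sham arrays and the other 3 TES arrays lay below it. Gng13 had 2 probe sets, both lower, with -0.15 (10732440) and -0.024 (10732441). In Nyx 3 of 4 were lower, with -0.023 for the brightest (10936747) and -0.14 for the dimmest (10936749).

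**Figure D3:**
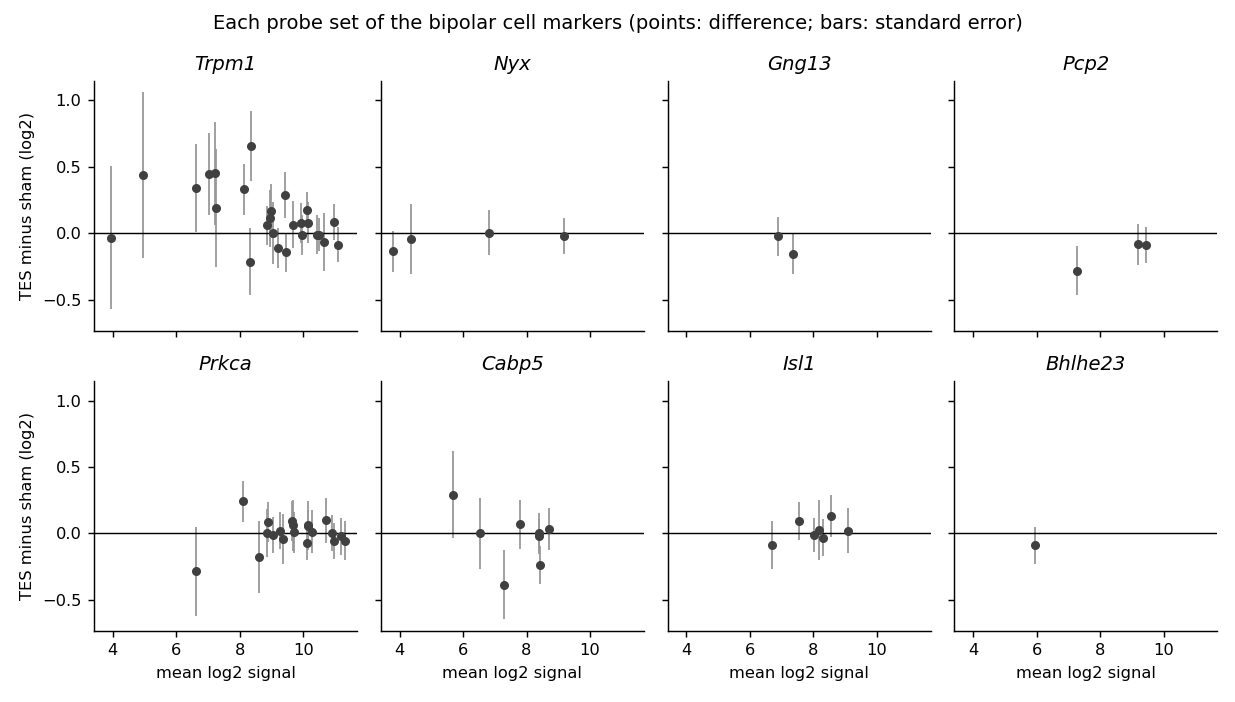
Difference of each of the 71 probe sets (y axis, TES minus sham, log2) against its mean log2 signal over all arrays (x axis), 1 panel per gene; bars are the standard error of the difference from limma. The widest bars and highest differences are those of dim Trpm1 probe sets.

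The genes that work with these markers were followed in 4 lists, which together held 56 measured genes, 48 of them outside the set of markers. In RNA from whole retina the signals of these genes cannot be assigned to bipolar cells alone. Among others, Otx2 and Crx also act in photoreceptors. The rod terminal partners are listed as genes of rods, and their signals cannot be assigned to rods alone. With limma, 0 of the 56 passed an adjusted p of 0.05 and 0 had an unadjusted p under 0.05, where 5.57% of all genes did. The ordinary equal-variance test gave 2 of the 56 at an unadjusted p under 0.05, Elfn1 (0.0321) and Irx5 (0.0437), both with an adjusted p of 0.907. The share of all genes under that test is not given here. Lower after TES were 36 of the 56 (54.9% of all genes were), with a median difference of -0.027 against -0.013 over all genes. With each array centred on its median, 23 of the 56 were lower and 43.3% of all genes.

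All 13 listed genes of the mGluR6 cascade were measured, 4 of them members of the set. Of these 4 were higher and 9 lower, with a median of -0.026, and none had an unadjusted p under 0.05 in limma. Pcp2 and Trpm1 had the smallest p. Grm6, the receptor itself, read 7.41, 7.28, 7.40 and 7.28 after TES and 7.35, 7.30, 7.41 and 7.42 after sham. Its groups overlapped, and they differed by -0.026 (95% interval -0.20 to 0.15). Gnao1, which encodes the alpha subunit of Go, differed by -0.00075 (95% interval -0.17 to 0.16), and Gpr179, the orphan receptor that holds the cascade's RGS proteins at the dendrite, by 0.074 (95% interval -0.09 to 0.24).

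Of the list of bipolar transcription factors 15 genes were analysed. Higher after TES were 7 and lower 8, with a median of -0.052. Irx5, a homeobox gene of some OFF bipolar cells in mouse, had the smallest p of all 4 lists (0.0721 unadjusted, 0.893 adjusted in limma). It read 4.51, 4.69, 4.54 and 4.58 after TES and 4.88, 4.69, 4.64 and 4.81 after sham, with TES 2 inside the sham range and the other 3 TES arrays below it. The difference was -0.17 (95% interval -0.36 to 0.02), but -0.36 with the probe set of highest mean per gene and -0.086 with the median probe set. Fezf2, a zinc finger gene of some OFF bipolar cells in mouse, differed by -0.10 (95% interval -0.30 to 0.09), and by -0.060 to -0.16 with 1 array left out. It was -0.046 with the probe set of highest mean and -0.17 with the median probe set.

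The list of other bipolar genes had 18 of 19 measured, with 7 higher and 11 lower and a median of -0.011. Kcng4, a modifying potassium channel subunit, read 3.52, 2.95, 3.54 and 3.09 after TES and 3.21, 3.43, 3.85 and 3.54 after sham. The groups overlapped and differed by -0.23 (95% interval -0.59 to 0.12, limma adjusted p 0.935). Its signal was close to the guide of 3.10, and its sign turned with the median probe set per gene (0.31). Scgn, the calcium-binding protein secretagogin of cone bipolar cells, differed by -0.10 (95% interval -0.32 to 0.11).

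The partners of bipolar dendrites in the rod terminal were all measured, with 2 of 10 higher, 8 lower and a median of -0.046. Elfn1, the adhesion protein by which rods contact mGluR6, read 8.78, 8.75, 8.90 and 8.87 after TES and 8.97, 9.002, 8.93 and 8.88 after sham. TES 3 lay above sham 4, and the other 3 TES arrays lay below every sham array. The difference was -0.12 (95% interval -0.29 to 0.05, limma adjusted p 0.924). Ctbp2, whose gene also encodes the synaptic ribbon protein RIBEYE, differed by -0.074 (95% interval -0.24 to 0.09).

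**Figure D4:**
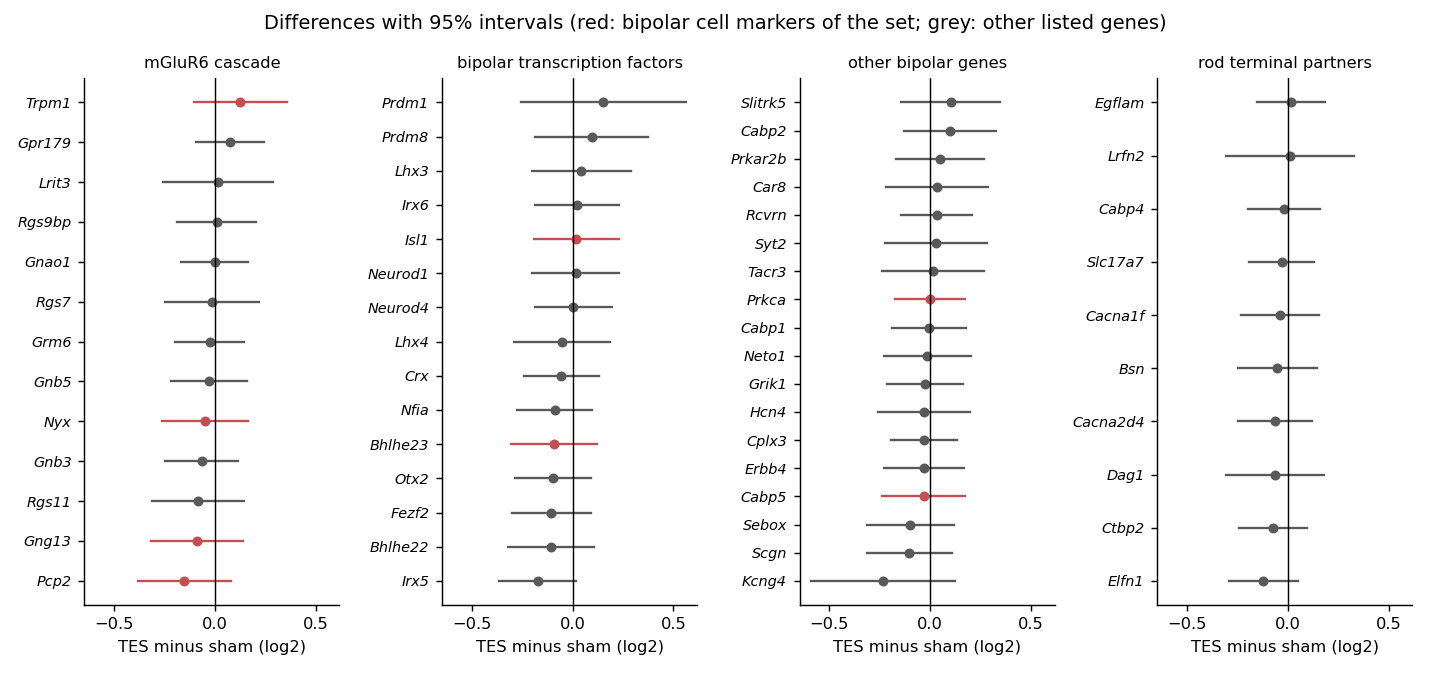
Difference of each listed gene (x axis, TES minus sham, log2) with its 95% interval from limma, 1 panel per list; red marks the bipolar cell markers of the set and grey the other genes. All 56 intervals include 0, and Irx5 (-0.36 to 0.02) comes closest to leaving it out.

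The genes whose signals followed the mean of the 8 markers most closely over the 8 arrays were Fkbp2, Aasdh and Phf14, out of 12495 genes above the guide. Pearson's r was 0.968, 0.964 and 0.957, and Spearman's rho 0.976, 0.952 and 0.952, given as a description of 8 arrays with the highest values picked. The mean of the markers was 7.74, 7.66, 7.79 and 7.70 on TES 1 to TES 4 and 7.78, 7.71, 7.75 and 7.78 on sham 1 to sham 4, so that what these genes followed was a spread of little more than 0.1 log2 units. TES 2 was the lowest array and TES 3 the highest. The markers did not all move together, so their mean does not stand for each of them. Over the 8 arrays, r between pairs of markers ran from -0.71 (Prkca with Bhlhe23) to 0.83 (Trpm1 with Prkca). For Trpm1 with Nyx it was -0.65. Fkbp2 read 4.32, 3.88, 4.62 and 4.00 after TES and 4.52, 4.29, 4.35 and 4.53 after sham, with the same lowest and highest arrays.

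The direction of small differences depended on the settings used. Trpm1 was higher after TES in all 8 fits that left out 1 array, but lower (-0.087) when its brightest probe set was used in place of the mean. Pcp2, Gng13 and Bhlhe23 kept a negative difference in every setting run, and Nyx, Prkca, Cabp5 and Isl1 changed sign in at least 1.

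**Figure D5:**
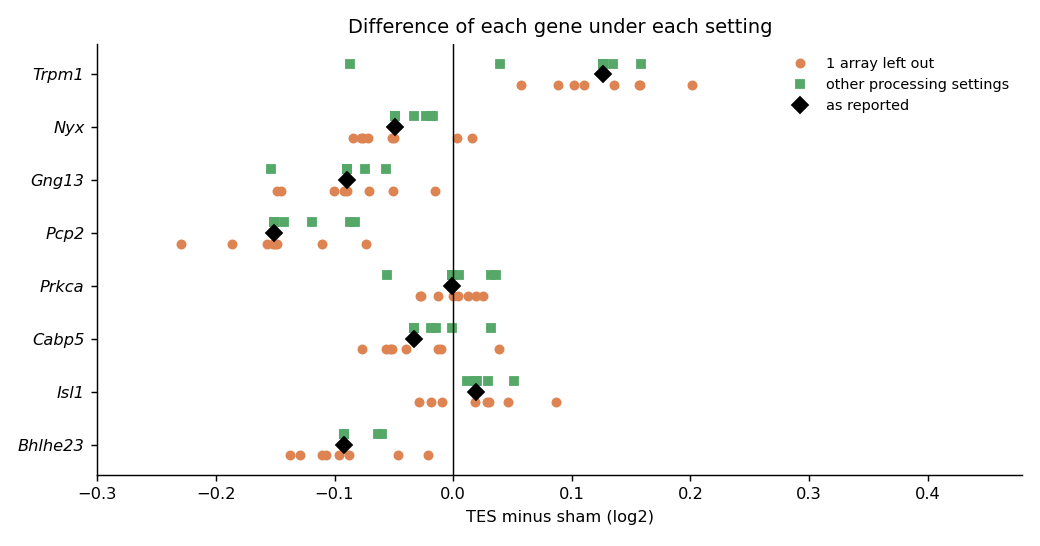
Difference of each measured marker (x axis, TES minus sham, log2) as reported (black diamonds), with 1 array left out (orange circles) and under the other processing settings (green squares). All values lie between -0.23 and 0.20, and those of Pcp2, Gng13 and Bhlhe23 stay below 0.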

How the data were processed

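Expression was measured in 8 retina samples on Affymetrix Rat Gene 1.0 ST arrays, and samples were grouped by their titles. The authors deposited log2 signals per probe set, computed with GC-RMA in GeneSpring GX according to the series text, and the submitters' processing notes also name GCRMA. Scaling between arrays, versions and the genome build are not given in the sources used here. The base of the logarithm was taken from the values (highest 13.2). GC-RMA corrects background by base composition, and dim signals may be less reliable. Scanner files were not analysed here, and the number of arrays limits the precision.

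Probe sets with exactly 1 symbol in the array annotation, which gives old symbols, were averaged per gene and array. TES was compared with sham in limma 3.58.1 (R 4.3.3) without covariates or a filter, over all 16633 genes and, separately, all 213067 probe sets, with Benjamini-Hochberg adjustment and a threshold of 0.05. The fit was tested on simulated data. SAM, the method named in the series text, was not rerun, and its thresholds were applied to the limma fit. The 9 genes and the lists were chosen with earlier results of these data known. The text names every measured member, for each member the brightest and dimmest probe set and those with an unadjusted p under 0.05, and for each list the genes with an unadjusted p under 0.05 or else the 2 of smallest p. It also names the 3 genes most like the members' mean. Otx2, Crx, Grm6, Gnao1 and Gpr179 were added for their roles, after their values were seen. The alternatives were array centring, quantile normalization, other ways to join probe sets, filters on low signal, other variance models, a replicate block and leaving out each array.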

Additional observations from a re-analysis of the deposited data

Results flagged for a closer look

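Each group of 4 arrays was searched for an array far from the other 3, by the gap to the nearest array over the range of the group (Dixon's test at the 95% level). Of 60 groups 4 were marked, and chance marks about 1 in 20. Scgn stood at 6.93 on sham 4 and at 6.68 to 6.72 on the other sham arrays. The brightest Trpm1 probe set (10707703) was at 11.27 on sham 2 and at 11.11 to 11.13 on the others, while the gene mean of Trpm1 was lowest on sham 2. The dimmest Nyx probe set (10936749) was at 4.07 on sham 4 and at 3.76 to 3.81 on the others. The brighter Gng13 probe set (10732440) was at 7.52 on TES 3 and at 7.16 to 7.22 on the other TES arrays. The cause was not tested for any of these.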

How the results depend on the processing

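The count of 0 members, 0 member probe sets and 0 listed genes past an adjusted p of 0.05 held in every setting run, and so did the count of 0 members past the study's thresholds. The probe set of highest mean per gene turned Trpm1 to -0.087 and Cabp5 to 0.032. The median probe set turned Prkca to 0.036 and Kcng4 to 0.31, and Kcng4 was 0.00014 over probe sets above the guide alone. Centring arrays on their median turned Prkca to 0.032, Nyx probe set 10936747 to 0.0096 and Gng13 probe set 10732441 to 0.0077, and quantile normalization turned Prkca to 0.0050 and Trpm1 probe set 10707696 to 0.0088. With 1 array left out, the difference ranged from -0.084 to 0.016 for Nyx, -0.028 to 0.025 for Prkca, -0.077 to 0.039 for Cabp5 and -0.028 to 0.086 for Isl1. Among probe sets it ranged from -0.38 to 0.39 for 10707696 (Trpm1), -0.077 to 0.020 for 10936747 (Nyx), -0.082 to 0.056 for 10732441 (Gng13), -0.053 to 0.094 for 10704361 (Cabp5), -0.096 to 0.11 for 10821489 and -0.20 to 0.020 for 10821493 (Isl1). The cause of these turns was not tested.

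Counts at an unadjusted p under 0.05 were small and moved. The shares over all genes or all probe sets in the other settings are not given here. For listed genes the count of 0 became 3 with the probe set of highest mean, Kcng4 among them, and 1 with probe sets above the guide. It was 2 with the ordinary equal-variance test and 0 to 1 with 1 array left out. For members it was 0 to 1 with 1 array left out, the 1 being Pcp2 without TES 3. For member probe sets the count of 1 became 0 with the ordinary test and 0 with the replicate block, and 0 to 3 with 1 array left out. That count was 0 without TES 2, 0 without sham 3 and 3 without sham 4, and it does not say which probe set passed: 10707677 (Trpm1) was over 0.05 in 5 of the 8 fits, and without TES 3 10756192 (Pcp2) was under it. Listed genes lower after TES numbered 23 of 56 with centred arrays instead of 36, and 30 to 41 with 1 array left out. Members lower numbered 4 to 7 of 8 with 1 array left out.

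Arrays of the 2 groups share the numbers 1 to 4. Deviations from the group means of same-numbered arrays correlated across genes with r of 0.12, 0.13, 0.0056 and -0.12. In these deviations the sham array most like TES 1 was sham 1, and that most like TES 2 was sham 2. For TES 3 it was sham 4 and for TES 4 sham 2. These values cannot tell whether same-numbered samples shared a day or a batch, which the labels do not give. With the replicate block 0 members passed, and their smallest limma adjusted p was 0.847 instead of 0.936.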
